A study of Mus musculus with 94 samples.

Results

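The collagen genes were taken as every gene of the RNA-seq and PRO-seq count tables whose mouse symbol has the form Col, a type number, the letter a and a chain number. The rule used symbols and no measured value. It found 44 genes of 24767 listed in any of the 4 tables, of which 11 encode fibrillar chains, 6 encode the type IV chains of basement membranes and 27 encode other chains. The study asked how eviction and retention of cohesin, the ring complex that holds chromatin loops, shape gene expression during stem cell differentiation. RAD21 is a core subunit of that ring, and WAPL releases the ring from chromatin. In the libraries analysed here either protein carried an FKBP degron, a tag through which the small molecule dTAG-13 sends the protein to the proteasome.

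All cells were mouse ES cells of a CAST/Ei x 129/Sv/Jae cross, labelled Tsix-stop, that had been kept on irradiated embryonic fibroblast feeders and then differentiated as embryoid bodies. The WAPL-FKBP cells had 3 days of 500 nM dTAG-13 or of DMSO, the solvent of the compound, and were taken at day 7 (the window from day 4 to day 7; 3 libraries each, 2 from clone H7 and 1 from clone H2) or at day 10 (day 7 to day 10; 2 libraries each, clone H7). The RAD21-FKBP cells had 8 h of 500 nM dTAG-13 or of DMSO and were taken at day 10 for RNA-seq or at day 7 for PRO-seq (2 libraries each, 1 from clone C4 and 1 from clone G9). PRO-seq counts nascent RNA from engaged RNA polymerase. Each clone is a single cell line, DMSO cells carry the degron too, and a degron acts on protein. The transcripts of Rad21 and Wapl therefore do not check the labels, and neither passed the test in any comparison. Libraries of different clones come from different cell lines. For the 2 replicates of clone H7 nothing in the labels says that they came from separate cultures, so the spread between them may be technical. P-values measure the spread between these libraries only.

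The 14 RNA libraries held between 8413212 and 35388461 counts and the 4 PRO-seq libraries between 14269544.5 and 34335988.5. Levels are in CPM, the counts scaled to a common library total, after TMM scaling, which corrects those totals for composition. A count of 3, the floor used here, stood for 0.0835 to 0.374 CPM in RNA and 0.0858 to 0.213 CPM in PRO-seq, counting error only. Gene lengths were not used, so levels are compared between libraries and never between genes. The pluripotency gene Pou5f1 was at 275 to 776 CPM in the 7 dTAG-13 RNA libraries and 357 to 934 CPM in the 7 DMSO RNA libraries, so this stem cell marker was still present at day 7 and day 10 of differentiation.

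Collagens are triple helices of 3 chains that form the scaffold of the extracellular matrix. Fibrillar chains (types I, II, III, V and XI) pack into cross-linked fibres. Type IV chains form the sheet of basement membranes, the layer that early embryonic epithelia and parietal endoderm deposit. Other types bead into microfilaments (VI), sit on fibril surfaces (the FACIT collagens such as XII and XXII), anchor epithelia (VII), span the cell membrane (XXIII, XXV) or carry endostatin at their end (XVIII).

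Several collagens lie side by side in the genome, and the RefSeq gene table of the mouse build GRCm38.p6 (the submitters' processing notes name mm9) placed 8 pairs next to each other. By the strands given, the genes of 2 pairs of type IV chains are transcribed away from each other, head to head. The strand of Col4a3 was not given, so the arrangement of the neighbours Col4a4 and Col4a3 could not be read. Col4a1 and Col4a2 on chromosome 8 have annotated starts 21 bases apart, so their first bases overlap. Col4a6 and Col4a5 on chromosome X have starts 1343 bases apart. The shared stretch of the first pair and the 250 bases before each start of the second are shown because the members of each pair are compared with each other further on. Capitals mark a CCAAT box (CCAAT) or a GC box (GGGCGG), read on either strand, and the sequences are credited to RefSeq.
Col4a1 and Col4a2 starts (chromosome 8, bases shared by both starts, Col4a2 strand): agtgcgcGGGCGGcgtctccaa
Col4a5 upstream (chromosome X, plus strand, up to the last base before the start): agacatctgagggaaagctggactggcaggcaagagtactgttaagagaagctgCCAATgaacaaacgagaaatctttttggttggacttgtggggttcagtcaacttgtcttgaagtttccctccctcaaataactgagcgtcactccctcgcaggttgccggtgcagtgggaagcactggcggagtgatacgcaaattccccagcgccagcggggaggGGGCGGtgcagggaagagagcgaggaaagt
Col4a6 upstream (chromosome X, minus strand, up to the last base before the start): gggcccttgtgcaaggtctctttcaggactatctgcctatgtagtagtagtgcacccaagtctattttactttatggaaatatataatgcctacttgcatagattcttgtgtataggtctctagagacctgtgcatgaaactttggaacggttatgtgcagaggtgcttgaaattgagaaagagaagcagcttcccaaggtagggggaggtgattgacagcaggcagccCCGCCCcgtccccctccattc
The shared stretch lies at chr8:11312805-11312826, the Col4a5 stretch at chrX:141475169-141475418 and the Col4a6 stretch at chrX:141474077-141474326. The shared stretch of the first pair holds 1 GC box. In the second pair the Col4a5 stretch has 1 box of each kind and the Col4a6 stretch has a GC box and no CCAAT. RefSeq promoters (250 bases before to 50 after a start) were given for 35 of the 44 collagens, 38 promoters in all. Of these 60.5% held a GC box against 35.7% of all 32851 promoters, 34.2% held a CCAAT box against 37.4%, and 13.2% held a TATA box (TATAAA) against 13.6%. A match is a description of letters only.

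After 3 days without WAPL, from day 4 to day 7, collagen transcripts were higher across fibrillar, basement membrane and other types. Of 44 collagens in that table, 35 had enough counts to test. With dTAG-13, 12 of these 35 rose and 0 fell (edgeR quasi-likelihood test, adjusted p under 0.05 over all 14544 genes tested, log2 fold changes of dTAG-13 over DMSO). Over all tested genes 9.46% rose and 5.73% fell. Of the 12, Col8a1 and Col25a1 passed the filter on low values only through dTAG-13 libraries, with every DMSO library under its limit of 0.583 CPM, so these 2 had to differ and 10 calls are left without them. The median log2 fold change was 0.53 over the 35 collagens that passed the filter and -0.01 over all tested genes, and without the first DMSO library the collagen median was 0.80. At an unadjusted p under 0.05, 18 of the 35 collagens and 4626 of all 14544 tested genes passed. All dTAG-13 libraries lay above all DMSO libraries for 19 of the 35, against 16.4% of all tested genes, and below them for 1, against 14.6%. Col8a1 and Col25a1, which had to differ, are among these 18 and these 19 and enter the collagen median, so they add no support there. The summed level of all collagens was 1434 to 1561 CPM in the dTAG-13 libraries and 977 to 1238 CPM in the DMSO libraries, so the groups did not overlap. Such a sum is carried by its most abundant members, among them Col18a1 and Col4a1, and neither of these passed the test. In such bulk samples more RNA per cell and more cells of a collagen-making type cannot be told apart.

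**Figure D1:**
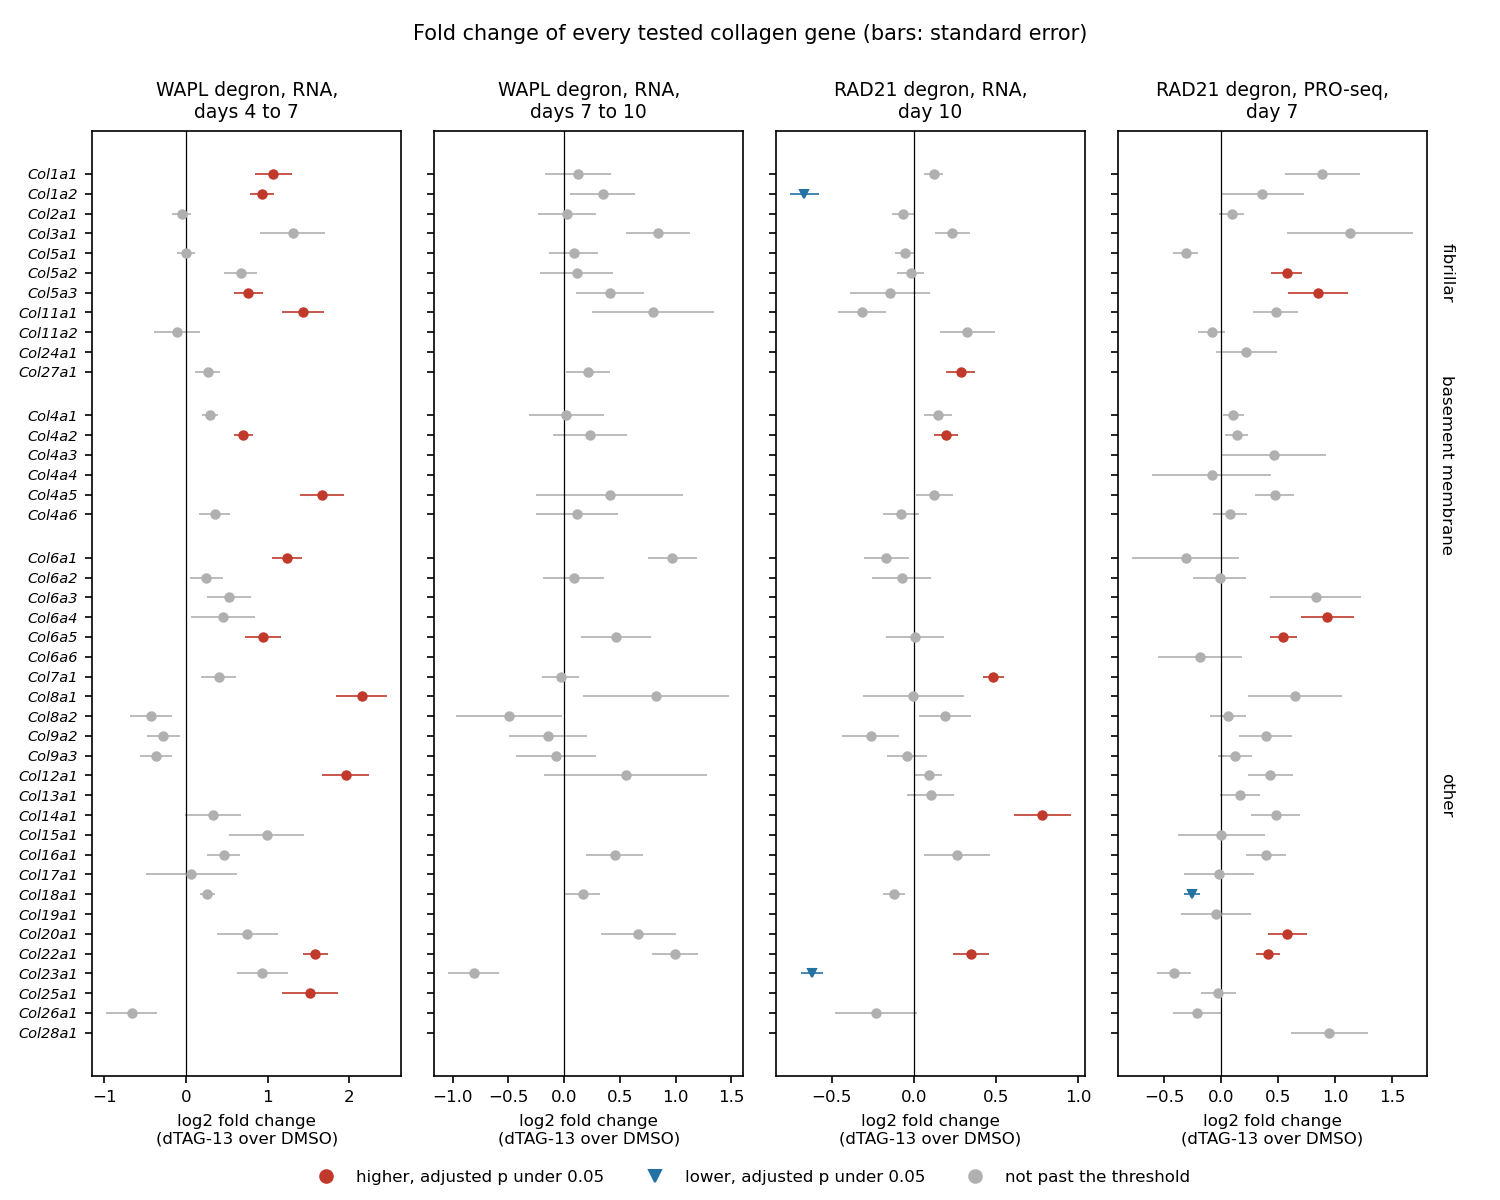
Log2 fold change (dTAG-13 over DMSO, x axis) with its standard error for every collagen tested in each comparison, grouped as fibrillar, basement membrane and other; each panel has its own scale. In the WAPL days 4 to 7 panel 12 of 35 genes passed the test, all to the right of 0, and in the days 7 to 10 panel 0 of 27 passed.

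Among fibrillar collagens 4 of 10 tested rose in the day 4 to 7 window. Col1a1, the alpha-1 chain of type I collagen of skin, bone and tendon, had 51.9, 39.3 and 51.9 CPM with dTAG-13 and 28.3, 26.2 and 14.2 CPM with DMSO. Its partner chain Col1a2 had 24.7, 28.0 and 27.7 CPM with dTAG-13 and 14.3, 16.2 and 11.6 CPM with DMSO. Neither gene's groups overlapped, and in both the lowest library was the DMSO library of clone H2. Their log2 fold changes were 1.07 ± 0.23 (SE, edgeR adjusted p = 0.0186) and 0.93 ± 0.15 (adjusted p = 0.00695). Col11a1, a chain of the type XI collagen that starts thin fibrils in cartilage, had 6.50, 11.0 and 13.3 CPM with dTAG-13 against 3.25, 4.34 and 3.49 CPM with DMSO, a log2 fold change of 1.43 ± 0.26 (edgeR adjusted p = 0.0107). Col5a3, a chain of the fibril-nucleating type V, rose by 0.76 ± 0.18 on the log2 scale (edgeR adjusted p = 0.0261).

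The other 6 tested fibrillar collagens did not pass the test. Col2a1, the chain of cartilage and notochord collagen, had 78.3, 76.4 and 38.4 CPM with dTAG-13 and 69.0, 85.4 and 43.6 CPM with DMSO (log2 fold change -0.05 ± 0.11, edgeR adjusted p = 0.785). The low value in each group was the library of clone H2. Col5a1, the main type V chain, had a log2 fold change of 0.00 with an SE of 0.12. Col3a1, of the type III collagen of elastic tissues, had 4.18, 2.82 and 8.40 CPM with dTAG-13 and 1.98, 2.03 and 0.997 CPM with DMSO, groups that did not overlap. Its log2 fold change of 1.31 ± 0.40 missed the threshold (edgeR adjusted p = 0.061), as did the 0.67 ± 0.20 of Col5a2 (adjusted p = 0.062).

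Of the 6 basement membrane chains 4 could be tested, and 2 of them rose. Col4a2 had 148, 140 and 144 CPM with dTAG-13 and 99.4, 96.5 and 71.9 CPM with DMSO (log2 fold change 0.70 ± 0.11, edgeR adjusted p = 0.00775). Col4a1, its partner in the most common type IV helix, had 221, 207 and 210 CPM with dTAG-13 and 185, 187 and 152 CPM with DMSO (0.29 ± 0.10, edgeR adjusted p = 0.0822). Both genes had groups that did not overlap. Col4a5, a chain of kidney and skin basement membranes whose human gene is mutated in Alport syndrome, had 6.57, 10.5 and 16.3 CPM with dTAG-13 and 3.23, 3.44 and 2.99 CPM with DMSO (1.67 ± 0.27, edgeR adjusted p = 0.00737). Its partner Col4a6 had 4.18, 5.89 and 7.71 CPM against 3.76, 3.91 and 6.73 CPM with DMSO, which overlapped (0.35 ± 0.19, edgeR adjusted p = 0.253). Col4a3 and Col4a4 had 0 to 10 and 2 to 9 counts per library and were not tested.

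Among the remaining types 6 of 21 tested genes rose, Col8a1 and Col25a1 among them. Both passed the filter on low values only through dTAG-13 libraries, so their tests are printed but not read as support. Col8a1, a short-chain network collagen of vessel walls and the cornea, rose by 2.15 ± 0.31 on the log2 scale (edgeR adjusted p = 0.00545), to 1.55, 2.20 and 1.93 CPM with dTAG-13 against 0.389, 0.519 and 0.374 CPM with DMSO. The lowest of these is only 3 counts. Col12a1, a fibril-surface collagen of dense connective tissue, had 27.1, 45.6 and 38.2 CPM with dTAG-13 and 12.5, 11.5 and 4.86 CPM with DMSO (1.95 ± 0.29, adjusted p = 0.00561). Col22a1, a FACIT collagen known from muscle and tendon junctions, had 15.4, 16.4 and 19.0 CPM with dTAG-13 and 5.70, 5.70 and 5.24 CPM with DMSO (1.58 ± 0.15, edgeR adjusted p = 0.00184). The groups of Col22a1 lay farther apart than the whole spread within either. Col6a1, a core chain of the microfilament-forming type VI, had 8.58, 8.82 and 16.0 CPM with dTAG-13 and 4.56, 3.25 and 5.86 CPM with DMSO (1.23 ± 0.18, edgeR adjusted p = 0.00568). Its neighbour and partner Col6a2 had 12.1, 8.09 and 15.1 CPM against 9.96, 9.05 and 9.47 CPM with DMSO, which overlapped (0.25 ± 0.20, edgeR adjusted p = 0.444). Col6a3, the long type VI chain, overlapped too (0.53 ± 0.27, edgeR adjusted p = 0.223). Col6a5, a further type VI chain, rose by 0.94 ± 0.22 on the log2 scale (edgeR adjusted p = 0.0264). Col25a1, a membrane-spanning collagen of neurons, had 0.928, 1.60 and 2.23 CPM with dTAG-13 and 0.529, 0.519 and 0.499 CPM with DMSO (1.51 ± 0.34, edgeR adjusted p = 0.0231), and it kept its call in 1 of the 6 fits that left out 1 library. Col18a1, the basement-membrane zone collagen that releases endostatin, had 730, 655 and 596 CPM with dTAG-13 and 593, 571 and 490 CPM with DMSO (0.26 ± 0.10, edgeR adjusted p = 0.104). No tested collagen fell. The lowest fold change was that of Col26a1 at -0.67 ± 0.31 (edgeR adjusted p = 0.18).

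**Figure D2:**
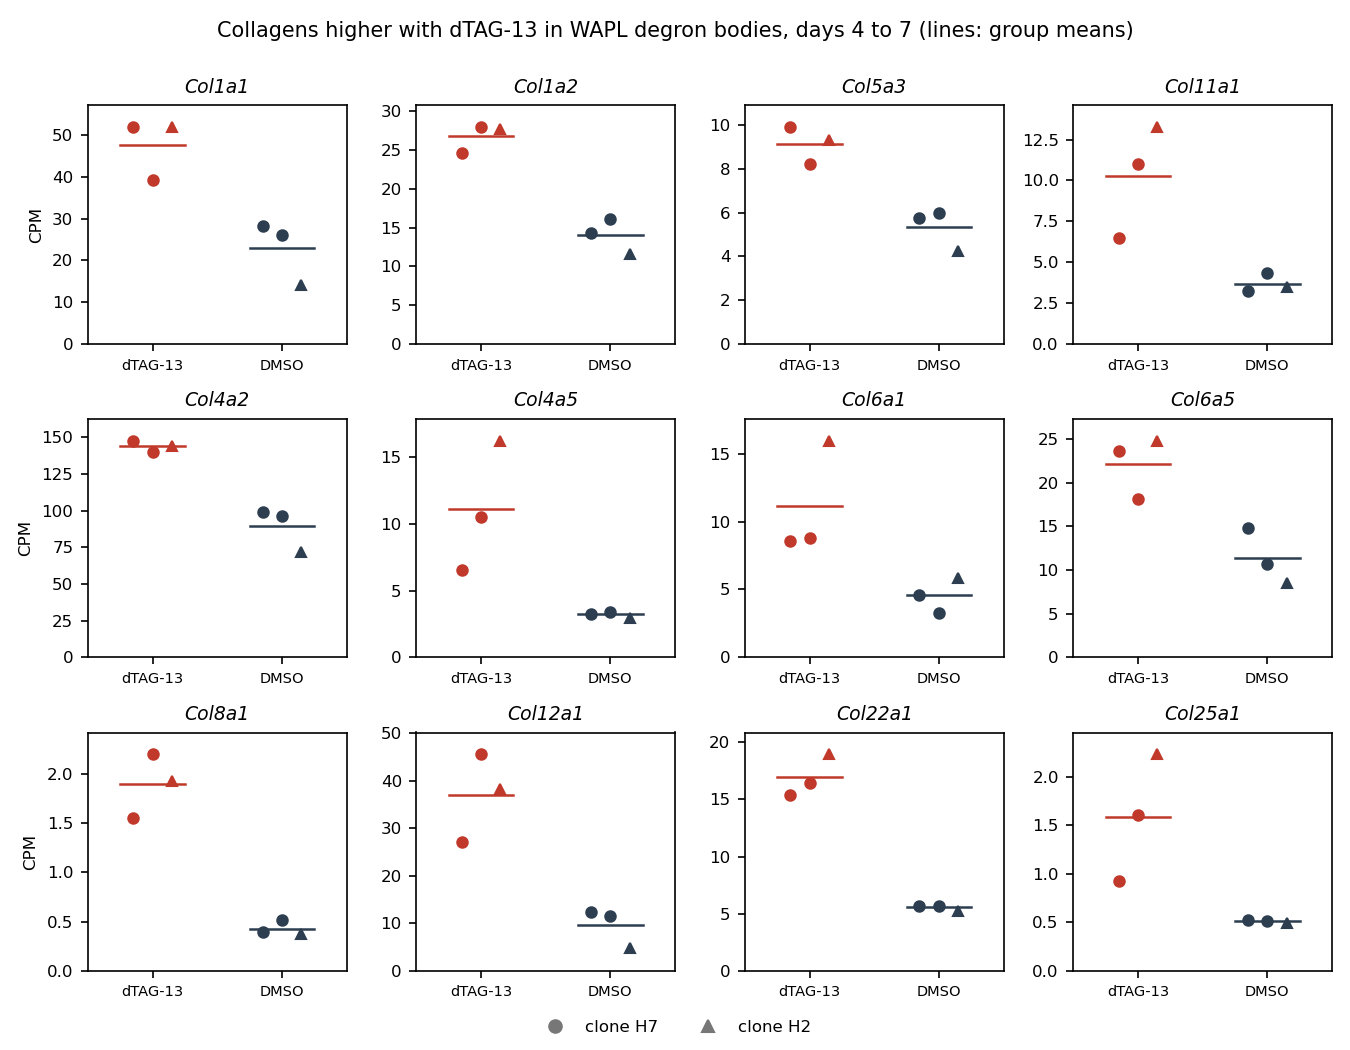
Level in CPM (y axis, each panel its own scale from 0) of the 12 collagens that rose in WAPL degron bodies from day 4 to day 7, one point per library, with dTAG-13 left and DMSO right; the shape gives the clone and the line the group mean. In all 12 panels the dTAG-13 points lie above the DMSO points, and for Col1a1 and Col12a1 the DMSO point of clone H2 lies lowest. Col8a1 and Col25a1 passed the filter on low values only through dTAG-13 libraries.

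Within clone H7 alone (2 libraries each) fewer genes were called, 1.79% of all tested genes being higher. In that fit 3 collagens passed the test, Col12a1 at a log2 fold change of 1.61, Col22a1 at 1.48 and Col8a1, one of the 2 carried through the filter by dTAG-13, at 2.10, and the other 9 kept positive values from 0.55 for Col4a2 to 1.38 for Col4a5 with edgeR adjusted p between 0.057 and 0.17. Leaving out either library of clone H2 left the same count of 3, but the clone term then takes up the other H2 library. Those fits therefore repeat the one within clone H7 and are no further check. Same-numbered libraries deviated together in this window, and blocking on the pair numbers kept the 12 calls and added Col3a1 (edgeR adjusted p = 0.0202), Col4a1 (0.0444), Col5a2 (0.0214), Col7a1 (0.0298) and Col23a1 (0.0129). In that blocked fit 15.4% of all tested genes rose and 12.1% fell.

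Genes that work with collagens were counted in the same libraries by list, beside the 9.46% of all tested genes that rose and the 5.73% that fell. Of 16 tested basement membrane partners 9 rose (56.2%) and 0 fell, with a median log2 fold change of 0.64. Among them were the laminin chains Lamc3 (2.44 ± 0.52, edgeR adjusted p = 0.0186) and Lama3 (1.29 ± 0.19, edgeR adjusted p = 0.005), which build the sheet that type IV collagen lies against. Of 10 fibril partners 7 rose (70.0%) and 0 fell (median 0.92), led by the matrix glycoprotein Postn (2.21 ± 0.42) and the small proteoglycans Dcn (1.15 ± 0.21) and Bgn (1.08 ± 0.15). Of 14 genes for processing and cross-linking outside the cell 5 rose, among them Lox (1.27 ± 0.32), the oxidase that starts cross-links, Bmp1 (1.17 ± 0.10), which trims the procollagen end, and Loxl4 (1.15 ± 0.15). In that list 1 fell, Loxl2 (-0.85 ± 0.17). Of 13 receptors and breakdown genes 3 rose, the protease gene Mmp9 (1.58 ± 0.21), the protease inhibitor gene Timp3 (0.97 ± 0.12) and the integrin Itga1 (0.68 ± 0.18), and 1 fell, the protease gene Mmp2 (-0.46 ± 0.10). Of 19 folding and hydroxylation genes of the endoplasmic reticulum only P4ha2, a prolyl hydroxylase subunit, passed (0.51 ± 0.12), a share of 5.26% that is not above that of all genes, and their median was 0.06. These counts describe the lists and do not test them.

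Markers of other cell types moved in the same libraries. Of 12 fibroblast and feeder markers tested 3 rose, Acta2 (2.38 ± 0.38), Vim (0.78 ± 0.20) and Pdgfrb (0.65 ± 0.14), and 1 fell, Thy1 (-0.89 ± 0.17). Their median log2 fold change was 0.26, with 11 of the 12 above 0. Their summed level was 685 to 930 CPM with dTAG-13 and 254 to 438 CPM with DMSO. Such sums are carried by the most abundant members of a list. Of 12 primitive and parietal endoderm markers 3 rose, Plat (1.37 ± 0.21), Sox17 (1.32 ± 0.34) and Dab2 (0.70 ± 0.15), and 1 fell, Foxa2 (-2.03 ± 0.23), with sums of median 116.5 CPM with dTAG-13 and 79.6 CPM with DMSO that did not overlap. Of 9 endothelial markers 0 rose and 1 fell, Sox18 (-1.38 ± 0.34), with sums that overlapped (85.1 to 138 CPM with dTAG-13, 101 to 132 CPM with DMSO). Of 7 cartilage and notochord markers 1 rose, T (0.41 ± 0.11), with sums of 223 to 385 CPM with dTAG-13 and 196 to 241 CPM with DMSO. Of the members of these lists, Dpt and Ttr in the dTAG-13 libraries and Emcn in the DMSO libraries were at 0 in every library of the group. The part of these cell types in the collagen result was not tested.

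When WAPL was removed later, from day 7 to day 10, 0 of 27 tested collagens passed the test, and 0 of all 14110 genes did, a share of 0%. At an unadjusted p under 0.05, 4 collagens and 926 genes passed, and DESeq2 called 0 collagens and 44 genes. Blocking on the replicate numbers called 12 collagens, 11 higher and 1 lower, against 17.5% and 19% of all genes. With 2 pairs only, those numbers may or may not pair the samples. In the main fit the fold changes were positive for 22 of the 27 collagens, with a median of 0.22 against -0.01 over all tested genes. Leaving out 1 library moved these values, to 16 of 27 and 0.03 without the second dTAG-13 library, 15 and 0.13 without the first DMSO library, 22 and 0.44 without the second DMSO library, and 23 and 0.37 without the first dTAG-13 library. All dTAG-13 libraries lay above all DMSO libraries for 8 collagens, against 17.3% of tested genes, and below them for 1, against 16.8%. Col22a1 had 19.0 and 23.8 CPM with dTAG-13 and 10.1 and 11.5 CPM with DMSO (log2 fold change 0.99 ± 0.21, edgeR adjusted p = 0.663). Col6a1 had 10.3 and 12.6 CPM with dTAG-13 and 5.68 and 6.02 CPM with DMSO (0.97 ± 0.22, edgeR adjusted p = 0.673). Both genes' groups lay apart by more than the replicates of either group differed, without passing the correction.

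The type I and type IV chains overlapped in this window. Col1a1 had 81.3 and 122 CPM with dTAG-13 and 75.1 and 112 CPM with DMSO. Col4a1 had 408 and 595 CPM with dTAG-13 and 364 and 626 CPM with DMSO, and Col4a2 had 316 and 449 CPM with dTAG-13 and 239 and 413 CPM with DMSO. In each of these genes the second replicate was the higher in both groups. Col12a1 showed the same order, with 49.6 and 123 CPM against 24.6 and 93.3 CPM with DMSO (0.55 ± 0.73, edgeR adjusted p = 0.98). Leaving out the second DMSO library brought 3 collagens past the threshold, Col12a1, Col11a1 and Col4a5, all higher, and in that fit 0.681% of all tested genes were higher. The summed level of all collagens was 1922 and 2508 CPM with dTAG-13 and 1618 and 2373 CPM with DMSO, and the fibroblast and feeder markers summed to 1325 to 1429 CPM with dTAG-13 and 888 to 1084 CPM with DMSO.

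The difference between the windows was tested in one fit over all 10 WAPL libraries as the late minus the early log2 fold change. It passed for 0 of 27 collagens and 0 of 14326 genes, a share of 0% (edgeR; 2 collagens and 423 genes at an unadjusted p under 0.05; DESeq2 0 collagens and 4 genes). The difference was above 0 for 5 of the 27 collagens, with a median of -0.35. Clone H2 is in the early window only, and with clone H7 alone it was above 0 for 10 of 27, with a median of -0.21. Fits without 1 library gave 2 of 27 (without the first early DMSO library, median -0.53) to 10 of 27 (without either library of clone H2), and the median nearest to 0 was -0.18, without the second late DMSO library. For Col12a1 it was -1.40 ± 0.84, for Col4a5 -1.24 ± 0.76 and for Col1a1 -0.94 ± 0.43 (SE). With the pairs blocked 0 collagens passed, against 0.014% of genes with a higher and 0.0209% with a lower late response.

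After 8 h without RAD21 the share of collagens past the test in RNA lay near that of all genes. At day 10, 5 of 30 tested collagens rose and 2 fell in RNA (edgeR, adjusted p under 0.05 over 14470 genes, clone in the model). Over all tested genes 9.83% rose and 8.89% fell, and 18.7% passed in either direction against 23.3% of the collagens. The median log2 fold change of the collagens was 0.00 and that of all tested genes 0.01. Both dTAG-13 libraries lay above both DMSO libraries for 7 collagens, against 15.6% of tested genes, and below them for 3, against 15.3%. The 10 fibrillar genes had 1 call in each direction, the 4 type IV genes 1 rise and the 16 others 3 rises and 1 fall. The summed level of all collagens was 1844 and 2054 CPM with dTAG-13 and 1687 and 2043 CPM with DMSO.

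Col1a2 had risen after 3 days of WAPL loss ending at day 7, and had not passed in the window ending at day 10 (0.35 ± 0.29, edgeR adjusted p = 0.924). The RAD21 set differs in length of treatment and in clones, so its values are set beside these only. After 8 h of RAD21 loss at day 10, Col1a2 fell to 22.8 CPM in clone C4 and 15.5 CPM in clone G9 with dTAG-13, against 33.9 and 26.8 CPM with DMSO (log2 fold change -0.67 ± 0.09, edgeR adjusted p = 9.27e-13). Its partner chain Col1a1 had 159 and 157 CPM with dTAG-13 and 142 and 149 CPM with DMSO (0.12 ± 0.06, edgeR adjusted p = 0.151). The dTAG-13 libraries thus lay below DMSO for one type I chain and above it for the other. Col23a1, a membrane-spanning collagen, fell to 22.6 CPM in C4 and 41.8 CPM in G9, against 31.8 and 69.5 CPM with DMSO (-0.62 ± 0.07, edgeR adjusted p = 2.41e-17). Its fall was seen within each clone, while the groups overlapped because G9 had the higher level in both.

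Col14a1, a fibril-surface collagen of tendon and skin, rose to 6.78 and 7.18 CPM against 3.57 and 4.60 CPM with DMSO (0.78 ± 0.17, edgeR adjusted p = 0.000123). Col7a1, the anchoring fibril collagen beneath epithelia, rose to 55.9 and 62.2 CPM against 39.7 and 44.8 CPM with DMSO (0.48 ± 0.06, edgeR adjusted p = 5.68e-13). Neither gene's groups overlapped. Smaller rises were those of Col22a1 (16.0 and 16.1 CPM with dTAG-13, 13.3 and 11.9 CPM with DMSO; 0.35 ± 0.11, edgeR adjusted p = 0.0122), of the fibrillar chain Col27a1 (25.8 and 23.6 CPM, against 20.2 and 20.4 CPM with DMSO; 0.28 ± 0.09, edgeR adjusted p = 0.0116) and of Col4a2. Col4a2 had 332 and 429 CPM with dTAG-13 and 272 and 399 CPM with DMSO (0.19 ± 0.07, edgeR adjusted p = 0.0447), so its groups overlapped and the rise was seen within clones. Col2a1 and Col18a1 had 42.1 and 38.8 CPM and 280 and 242 CPM with dTAG-13, against 39.9 and 45.2 CPM and 296 and 271 CPM with DMSO, and did not pass.

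Col4a1 had 543 and 713 CPM with dTAG-13 and 474 and 668 CPM with DMSO, and missed the threshold in RNA (0.15 ± 0.09, edgeR adjusted p = 0.253). Col4a5 had 14.5 and 13.5 CPM with dTAG-13 and 13.01 and 12.8 CPM with DMSO (0.12 ± 0.11), and Col4a6 had 12.2 and 15.5 CPM with dTAG-13 and 13.6 and 15.5 CPM with DMSO (-0.08 ± 0.11). The type VI chains Col6a1 (-0.17 ± 0.14) and Col6a2 (-0.07 ± 0.18) and the type III chain Col3a1 (0.23 ± 0.11) did not pass either, and the groups of Col6a1 did not overlap, with 8.29 and 8.67 CPM with dTAG-13 and 8.89 and 10.3 CPM with DMSO.

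These RAD21 calls rest on 1 pair per clone, 1 residual degree of freedom and the spread shared over all genes. DESeq2 called 3 collagens (Col1a2, Col23a1 and Col7a1) and 3.26% of all tested genes, a fit without the clone called 0, and fits without 1 library, which hold no clone term, called 0 or 1. Scaled by library totals alone, 2 collagens rose (Col14a1 and Col7a1) and 2 fell (Col1a2 and Col23a1), and over all genes 4.91% rose and 9% fell.

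**Figure D3:**
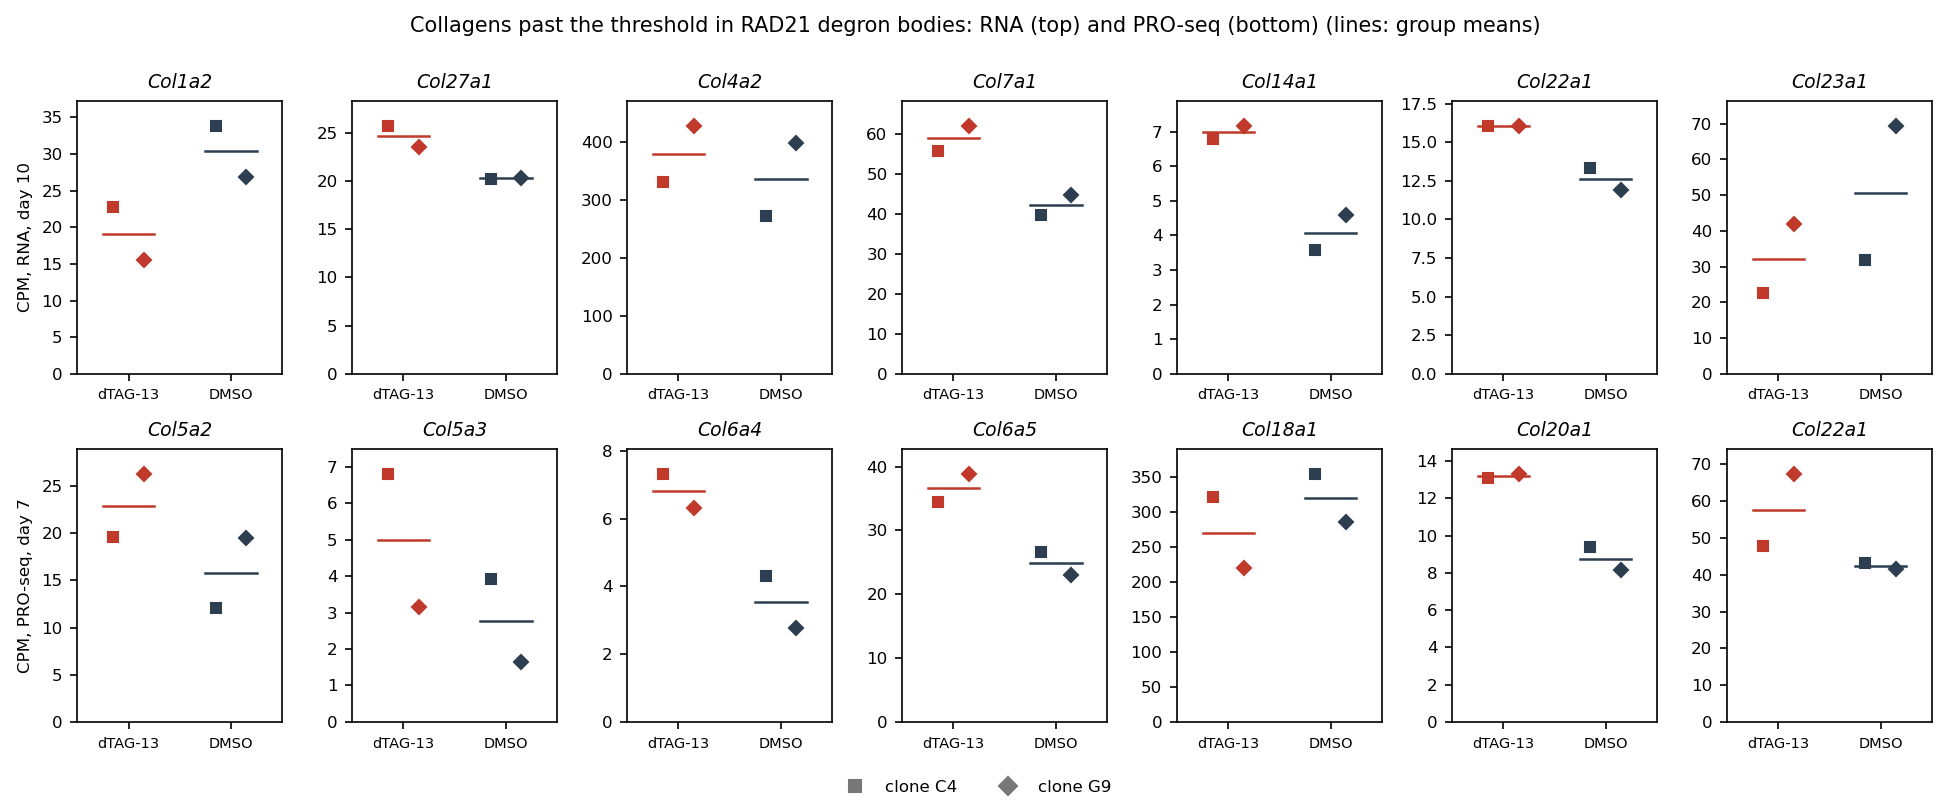
Level in CPM (y axis, each panel its own scale from 0) of the 7 collagens past the threshold in RAD21 degron RNA at day 10 (top) and the 7 in PRO-seq at day 7 (bottom), dTAG-13 left and DMSO right, one point per clone with the group mean as a line. Col1a2 and Col23a1 in RNA and Col18a1 in PRO-seq lie lower with dTAG-13 in both clones, and the other panels lie higher in both clones.

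Nascent transcription at day 7, also after 8 h without RAD21, showed 6 of 40 tested collagens higher and 1 lower (edgeR, adjusted p under 0.05 over 16496 genes). Over all tested genes 5.9% rose and 4.66% fell. The median log2 fold change was 0.19 over the collagens and 0.00 over all tested genes. The collagen median was 0.10 without the dTAG-13 library of G9, 0.36 without the DMSO library of G9 and 0.32 without the dTAG-13 library of C4, in fits with no clone term. In all, 12 collagens had both dTAG-13 libraries above both DMSO libraries, against 14.5% of tested genes, while 0 had both below, against 15.9%. Calls fell among fibrillar (2 of 10) and other collagens (5 of 24), with 0 of 6 type IV genes past the threshold. Summed over all collagens the PRO-seq level was 807 and 832 CPM with dTAG-13 and 786 and 837 CPM with DMSO.

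Among fibrillar genes Col5a2, a type V chain, had 19.6 CPM in C4 and 26.3 CPM in G9 with dTAG-13 and 12.0 and 19.4 CPM with DMSO (0.57 ± 0.14, edgeR adjusted p = 0.0056). Its groups did not overlap but lay close, the lower dTAG-13 library at 19.6 CPM and the higher DMSO library at 19.4 CPM. Col5a3 had 6.81 and 3.16 CPM with dTAG-13 and 3.92 and 1.63 CPM with DMSO (0.85 ± 0.27, edgeR adjusted p = 0.0359). The groups of Col5a3 overlapped, since clone C4 was higher in both. Col1a1 had 3.75 and 3.02 CPM with dTAG-13 and 1.57 and 2.27 CPM with DMSO, which did not overlap and missed the threshold (0.89 ± 0.33, edgeR adjusted p = 0.0819). Col5a1 had 43.9 and 48.1 CPM with dTAG-13 and 44.7 and 74.0 CPM with DMSO (-0.31 ± 0.11, edgeR adjusted p = 0.0604).

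Of the type IV chains in PRO-seq, Col4a1 had 51.2 and 75.5 CPM with dTAG-13 and 47.2 and 70.8 CPM with DMSO (0.11 ± 0.09). Col4a2 had 40.5 and 58.7 CPM with dTAG-13 and 40.0 and 48.8 CPM with DMSO (0.14 ± 0.10). Each was higher with dTAG-13 within both clones, and the groups overlapped because clone G9 was the higher. Col4a5 had 9.05 and 17.0 CPM with dTAG-13 and 7.23 and 11.1 CPM with DMSO (0.47 ± 0.17, edgeR adjusted p = 0.0771), while Col4a6 had 9.22 and 20.7 CPM with dTAG-13 and 9.09 and 18.9 CPM with DMSO (0.08 ± 0.15). Col4a3 (0.46 ± 0.46) and Col4a4 (-0.09 ± 0.52) were measured with wide errors.

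Of the type VI chains Col6a5 had 34.4 and 38.9 CPM with dTAG-13 and 26.6 and 23.1 CPM with DMSO (0.54 ± 0.12, edgeR adjusted p = 0.00222). Its neighbour Col6a4 had 7.32 and 6.32 CPM with dTAG-13 and 4.32 and 2.77 CPM with DMSO (0.93 ± 0.23, edgeR adjusted p = 0.00782). Neither gene's groups overlapped. The FACIT genes Col20a1 (13.1 and 13.3 CPM with dTAG-13, 9.38 and 8.16 CPM with DMSO) and Col22a1 (47.8 and 67.5 CPM with dTAG-13, 43.1 and 41.6 CPM with DMSO) rose by 0.58 ± 0.17 and 0.41 ± 0.11 (edgeR adjusted p = 0.0225 and 0.0114). Col18a1 fell, to 321 and 220 CPM against 355 and 286 CPM with DMSO (-0.26 ± 0.07, edgeR adjusted p = 0.0106), with groups that overlapped. DESeq2, a fit without the clone and each of the 4 fits without 1 library, which hold no clone term, called 0 collagens in PRO-seq, and DESeq2 called 3.12% of all tested genes.

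RNA at day 10 and PRO-seq at day 7 are values of different days and are set side by side only. Col22a1 passed in both, at 0.35 in RNA and 0.41 in PRO-seq, and it was also among the rises after WAPL loss. It was past the threshold in 3 of the 4 comparisons, Col1a2, Col4a2, Col5a3 and Col6a5 in 2 each and 15 other collagens in 1. The 2 calls of Col1a2 went in opposite directions, higher in WAPL days 4 to 7 and lower in RAD21 RNA. How many of all genes were called in more than 1 comparison was not counted, so these counts are a description only. Col1a2 had a log2 fold change of -0.67 in RNA and 0.36 ± 0.36 in PRO-seq. Col23a1 had -0.62 in RNA and -0.42 ± 0.15 in PRO-seq (edgeR adjusted p = 0.0685), and Col14a1 had 0.78 and 0.48 ± 0.21 (PRO-seq edgeR adjusted p = 0.163).

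Companion genes of collagens were counted after RAD21 loss beside all tested genes, of which 9.83% rose and 8.89% fell in RNA, and 5.9% rose and 4.66% fell in PRO-seq. Of 14 basement membrane partners 6 rose and 1 fell in RNA, led by Lama3 (0.71 ± 0.13), Lamb3 (0.35 ± 0.10) and Nid1 (0.32 ± 0.06) and with Lamc1 at -0.25 ± 0.07, and 7 rose and 1 fell in PRO-seq, led by Lamb3 (0.83 ± 0.20), Nid1 (0.77 ± 0.14) and Lamc3 (0.76 ± 0.21) and with Lamc1 at -0.22 ± 0.07. Of 14 processing and cross-linking genes in RNA 5 rose, led by the transglutaminase Tgm2 (0.71 ± 0.06), Loxl4 (0.60 ± 0.09) and Pcolce (0.41 ± 0.06), and 2 fell, the procollagen proteases Adamts2 (-0.74 ± 0.26) and Tll1 (-0.54 ± 0.19). In PRO-seq 4 of 13 rose, led by Lox (1.22 ± 0.30), Loxl4 (1.20 ± 0.17) and Tll2 (0.60 ± 0.19). Fibril partners gave 3 rises and 1 fall of 9 in RNA (Thbs1 0.39, Tnc 0.37 and Ctgf 0.34, against Postn at -1.13), and 2 rises and 1 fall of 11 in PRO-seq (Tnc 1.05 and Thbs1 0.29, against the fibronectin gene Fn1 at -0.43). Of 19 folding genes 1 rose (Serpinh1, the collagen chaperone, 0.20) and 3 fell (P3h3 -0.39, P3h2 -0.37, Plod2 -0.17) in RNA, while 3 rose (Serpinh1 0.40, Creb3l1 0.32, Plod2 0.26) and 1 fell (P3h2 -0.50) in PRO-seq. In RNA that is 21.1% of the folding list in either direction, near the 18.7% of all genes. Receptors and breakdown genes gave 4 rises of 12 in RNA, led by the protease inhibitor genes Timp3 (0.82), Timp2 (0.39) and Timp1 (0.27), and 3 of 15 in PRO-seq (Mmp2 0.44, Timp3 0.27 and Itgb1 0.21), with 0 falls in both.

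Markers of other cell types moved after RAD21 loss as well, and 2 pluripotency genes fell. Nanog had a log2 fold change of -0.47 in RNA and -0.77 in PRO-seq. Pou5f1 had -0.26 in RNA (edgeR adjusted p = 0.0044) and -0.76 in PRO-seq (edgeR adjusted p = 2.01e-05). In RNA 3 of 13 fibroblast and feeder markers rose (Acta2 0.49, Pdgfrb 0.31, Vim 0.29) and 1 fell (Thy1 -0.32), with sums of 1492 to 1723 CPM with dTAG-13 and 1238 to 1339 CPM with DMSO. Of 13 endoderm markers 2 rose (Plat 0.38, Dab2 0.20) and 3 fell (among them Sox17 at -0.44 and Foxa2 at -0.22), with sums of 347 to 521 CPM and, in DMSO, 338 to 579 CPM. Of 8 endothelial markers 1 rose (Flt1 0.18) and 3 fell (Cldn5 -1.25, Sox18 -1.06, Kdr -0.87), with sums of 188 to 198 CPM and, in DMSO, 184 to 224 CPM. Of 9 cartilage and notochord markers 0 rose and 3 fell (Sox9 -1.91, Shh -1.74, T -0.40), with sums of 221 to 305 CPM and, in DMSO, 303 to 435 CPM. Sox9 is a known activator of Col2a1, whose own RNA log2 fold change was -0.06 ± 0.07. In PRO-seq 2 of 13 fibroblast markers rose (Prrx1 1.47, Acta2 0.60), 2 of 11 endoderm markers rose (Cubn 0.79, Plat 0.75) and 2 fell (Foxa2 -1.50, Gata6 -0.66), 1 of 9 endothelial markers rose (Tek 0.53) and 1 fell (Kdr -1.04), and 0 of 10 cartilage and notochord markers rose and 1 fell (T -1.81). The PRO-seq sums were 133 to 196, 86.0 to 128, 185 to 290 and 74.5 to 106 CPM with dTAG-13 for these 4 lists in turn, and 125 to 176, 69.9 to 131, 167 to 246 and 81.4 to 202 CPM with DMSO. Dpt with dTAG-13 and Ttr with DMSO were at 0 in PRO-seq, and their part and that of the other markers in the collagen results was not tested.

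The 2 type IV pairs read as head to head were compared within each library as a ratio of counts. Such a ratio cancels the library's depth and is compared between libraries only. Col4a2 had 0.667, 0.678 and 0.687 counts per count of Col4a1 with dTAG-13 in the day 4 to 7 WAPL window, against 0.536, 0.515 and 0.473 with DMSO. The groups did not overlap (log2 difference 0.42, exact two-sided permutation p = 0.1, the smallest that 3 against 3 libraries allow). Any bearing of the 22 shared bases printed above on this ratio was not tested. From day 7 to day 10 the ratio was 0.775 and 0.754 with dTAG-13 and 0.655 and 0.660 with DMSO, again with no overlap (log2 difference 0.22, exact permutation p = 0.333, the smallest that 2 against 2 allow). After RAD21 loss it was 0.611 and 0.601 with dTAG-13 and 0.575 and 0.598 with DMSO in RNA, and 0.791 and 0.777 with dTAG-13 and 0.848 and 0.689 with DMSO in PRO-seq, where the groups overlapped. These ratios were added after the data had been seen.

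Col4a5 over its head-to-head partner Col4a6 was at 1.57, 1.78 and 2.11 with dTAG-13 in the day 4 to 7 window and at 0.859, 0.880 and 0.444 with DMSO (log2 difference 1.38, exact two-sided permutation p = 0.1, the smallest possible). From day 7 to day 10 the ratio was 1.60 and 2.23 with dTAG-13 and 1.02 and 2.02 with DMSO, which overlapped, the second replicate being higher in both groups. In RAD21 PRO-seq it was 0.981 and 0.824 with dTAG-13 and 0.796 and 0.587 with DMSO, which did not overlap, and in RNA 1.19 and 0.874 against 0.957 and 0.826 with DMSO, which did.

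**Figure D4:**
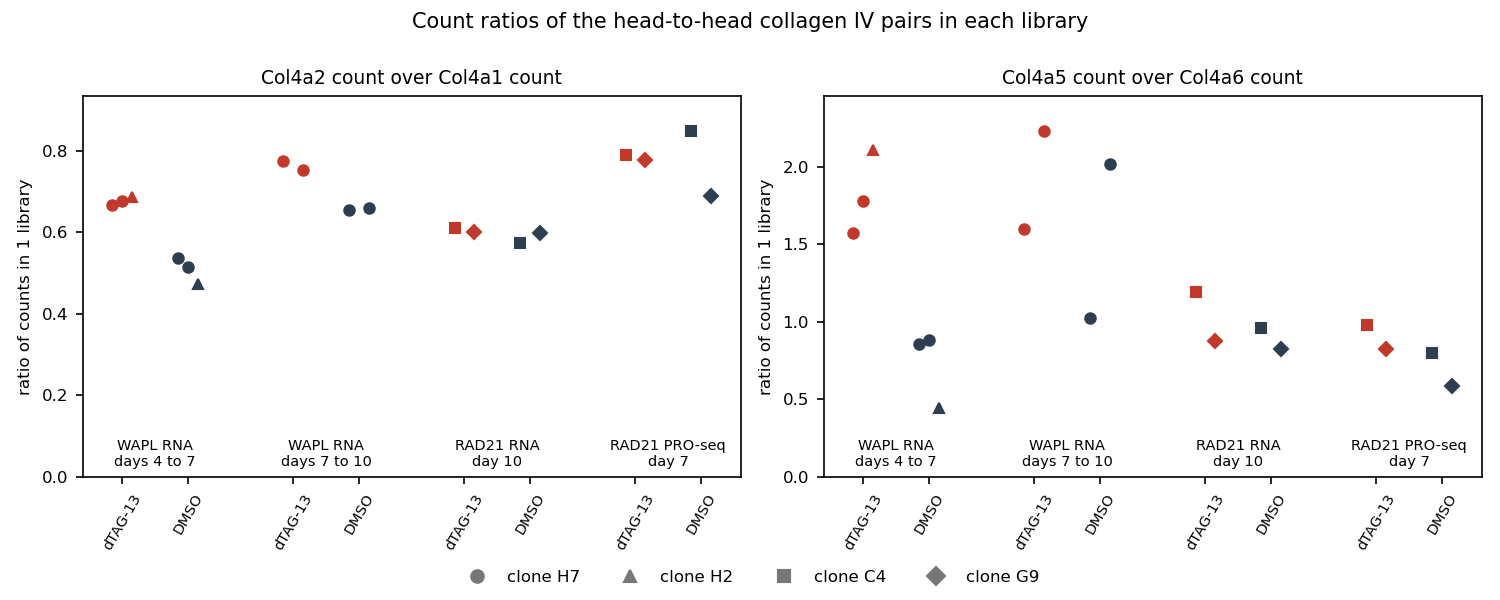
Ratio of the counts of Col4a2 to Col4a1 (left) and of Col4a5 to Col4a6 (right) in each of the 18 libraries (y axis from 0), with dTAG-13 in red left of DMSO in dark blue for each comparison; shapes give clones. In WAPL days 4 to 7 the dTAG-13 points lie at 0.667 to 0.687 and 1.57 to 2.11, above the DMSO points at 0.473 to 0.536 and 0.444 to 0.880.

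Other neighbours were compared in the same way. Col6a1 over Col6a2, which lie in a row on chromosome 10, ranged from 0.707 to 1.09 with dTAG-13 and from 0.359 to 0.618 with DMSO in the day 4 to 7 window (log2 difference 1.00, exact permutation p = 0.1), and from 1.47 to 1.67 against 0.690 to 1.09 with DMSO in the late one (0.85, exact permutation p = 0.333). After RAD21 loss it overlapped in RNA (1.51 to 2.07 with dTAG-13, 1.63 to 2.15 with DMSO) and in PRO-seq (0.109 to 0.322 with dTAG-13, 0.174 to 0.295 with DMSO). Col3a1 over Col5a2, neighbours on chromosome 1, overlapped in the early window (0.0761 to 0.257 with dTAG-13, 0.0733 to 0.0808 with DMSO) and in RAD21 RNA (0.452 to 0.710 with dTAG-13, 0.341 to 0.649 with DMSO), and did not overlap in the late window (0.0890 to 0.143 with dTAG-13, 0.0628 to 0.0732 with DMSO; log2 difference 0.73, exact permutation p = 0.333). In PRO-seq, Col6a5 over Col6a4 was 4.69 to 6.15 with dTAG-13 and 6.17 to 8.33 with DMSO, while both genes rose. Lower ratios with dTAG-13 and no overlap were also those of Col4a4 over Col4a3 (0.577 to 0.632 with dTAG-13, 0.867 to 0.885 with DMSO) and of Col6a6 over Col6a5 (0.0283 to 0.0677 with dTAG-13, 0.0677 to 0.0881 with DMSO, ranges that touch at 3 digits), while Col9a1 over Col19a1 overlapped (0.0567 to 0.276 with dTAG-13, 0.0930 to 0.692 with DMSO). The PRO-seq libraries held only 12 to 23 counts of Col4a4 and 15 to 26 of Col4a3, so the counting error of their ratio is wide. The arrangement of these neighbours could not be read. In all, 19 ratios over 8 neighbour pairs could be set against each other, and no exact test of 3 against 3 or 2 against 2 libraries can give a p below 0.1 or 0.333.

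Col23a1 lay above DMSO in each early WAPL pair and below it in both late ones. Col7a1 lay above DMSO in each early pair and close to it late. The early groups of both genes overlapped. Neither gene passed the main test, which holds no pair block, in either window. With the pairs blocked, both genes were called higher in the early window. In the day 4 to 7 WAPL window Col23a1 had 3.33, 2.76 and 5.16 CPM with dTAG-13 and 1.98, 0.848 and 3.12 CPM with DMSO (0.93 ± 0.31, edgeR adjusted p = 0.0784). From day 7 to day 10 it had 11.6 and 11.7 CPM with dTAG-13 and 17.2 and 23.7 CPM with DMSO (-0.81 ± 0.23, edgeR adjusted p = 0.689). In RAD21 PRO-seq it had 9.74 and 17.6 CPM with dTAG-13 and 12.2 and 25.1 CPM with DMSO. Its level differed between clones as well, and with DMSO G9 had 69.5 CPM against 31.8 CPM in C4 in RNA. Col7a1 had 27.6, 20.2 and 25.6 CPM with dTAG-13 and 24.2, 15.0 and 15.7 CPM with DMSO in the early WAPL window, and 40.3 and 45.2 CPM against 41.6 and 45.8 CPM with DMSO in the late one.

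**Figure D5:**
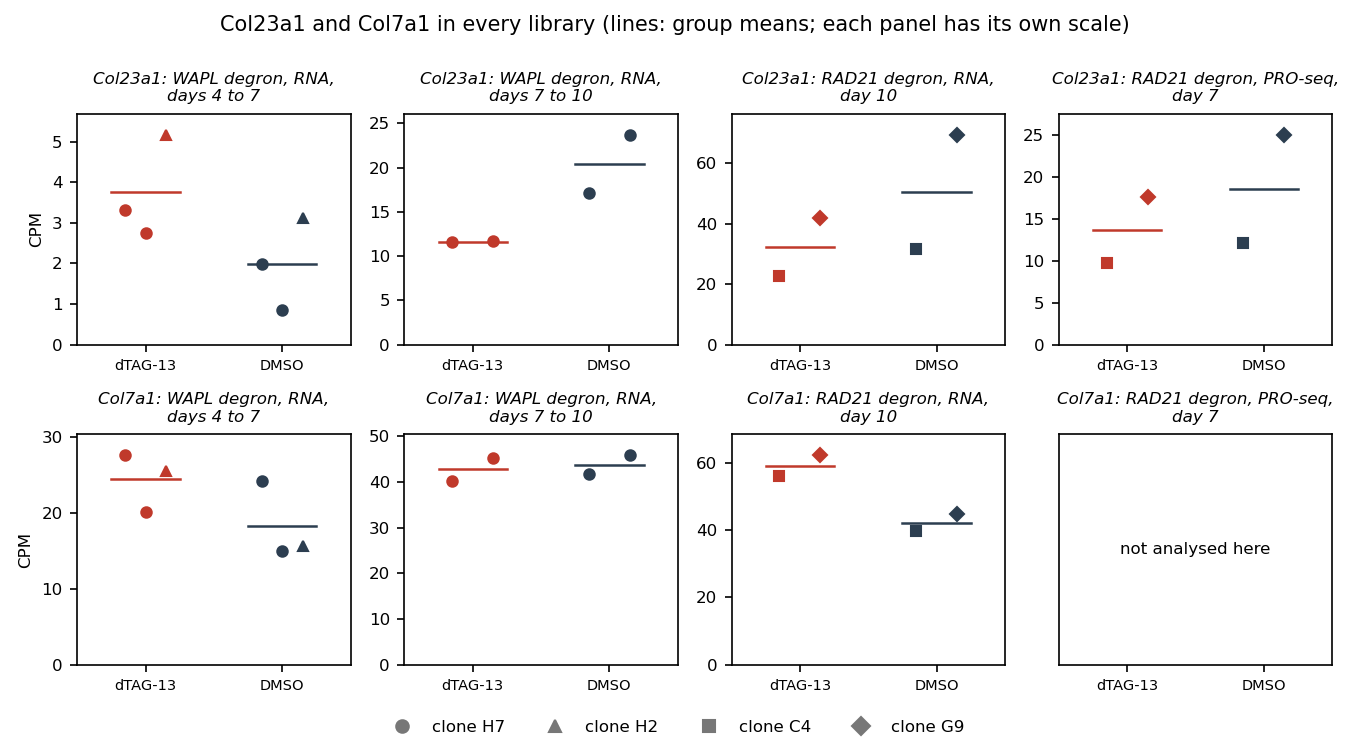
Level in CPM (y axis, each panel its own scale from 0) of Col23a1 (top) and Col7a1 (bottom) in each library of the 4 sets, dTAG-13 left and DMSO right, with group means as lines and clones as shapes. Col23a1 has a higher mean with dTAG-13 in the early WAPL window (2.76 to 5.16 CPM, against 0.848 to 3.12 CPM with DMSO) and a lower one in the other 3 sets, and Col7a1 was not analysed in PRO-seq.

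The collagens also differed between clones without any dTAG-13, which is given as a description of 1 DMSO library per RAD21 clone. In RNA, Col9a3, a chain of the cartilage FACIT type IX, was at 18.6 CPM in G9 and 6.84 CPM in C4, and Col13a1 at 10.0 and 5.62 CPM. In PRO-seq Col19a1, a rare FACIT collagen, was at 9.16 CPM in G9 and 0.743 CPM in C4, and Col17a1, of hemidesmosomes, at 1.14 and 4.55 CPM. Col9a3, Col13a1, Col17a1 and Col19a1 were named here after their values had been seen. Col4a1 was at 668 CPM in G9 and 474 CPM in C4 in RNA. In the WAPL set Col12a1 was at 4.86 CPM in the DMSO library of H2 and at 12.0 CPM on average in H7, and Col5a2 at 12.3 and 26.5 CPM. Among the genes left, Col10a1 and Col9a1 could not be tested in any table, with 0 to 6 and 0 to 18 counts per library, and 24 collagens were tested in all 4.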

How the data were processed

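Of 94 samples, 14 RNA-seq and 4 PRO-seq libraries were used. For RNA the authors deposited unnormalized counts for each gene. For PRO-seq the authors deposited estimated counts, whose values step by 0.5 and were rounded here before testing. Per the submitters' processing notes, tools including TopHat2, Novoalign, Bowtie2 and HOMER and the build mm9 were used, with no role or version given. The notes also name the builds hg19 and dm6, again with no role given. How reads were assigned to genes, and whether by strand, is not given in the sources used here.

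Counts were tested in edgeR 4.0.16 (R 4.3.3; TMM; genes kept by filterByExpr at min.count 10; quasi-likelihood test; Benjamini-Hochberg adjusted p under 0.05), fitted on whole tables, with the clone as a term where there were 2 clones. Members and gene lists were chosen with earlier results of these data known. Named were every collagen past the threshold, the main type I to VI and XVIII chains, neighbour pairs, and up to 3 list members per direction. Some list members are not reported here. Col26a1, Pou5f1 and Nanog were named after their values had been seen. Deviations of same-numbered libraries correlated at r = 0.52, 0.54 and 0.63 in WAPL days 4 to 7, the last pair being clone H2, and same-clone RAD21 libraries at 0.68 and 0.72. Replicates differed beyond sampling noise (chi-square per gene 12.9 to 55.3). Ratios were tested by exact permutation in scipy 1.17.1. Alternatives were RLE and total scaling, other filters, DESeq2 1.42.0, limma-voom (limma 3.58.1), other designs and leaving out each library, for RAD21 without the clone term because no residual degree of freedom would be left. Tests were checked on simulated data. Figures were drawn with matplotlib 3.10.9.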

Additional observations from a re-analysis of the deposited data

Results flagged for a closer look

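2 collagens had opposite signs in the WAPL windows in every pair of same-numbered libraries. The share of all genes with such signs was not counted, so this count is a description only. Neither gene passed the main test, which holds no pair block, in either window. With the pairs blocked, both were called higher in days 4 to 7. Col23a1 was higher with dTAG-13 in all 3 pairs of days 4 to 7 (log2 ratios 0.63, 1.27 and 0.65) and lower in both pairs of days 7 to 10 (-0.54 and -0.99), and the late minus early log2 difference was -1.73 ± 0.42 (edgeR unadjusted p = 0.00309, adjusted p = 1.00). Col7a1 was higher in the 3 early pairs (0.19, 0.41 and 0.69) and lower by little in the 2 late ones (-0.05 and -0.02), with a difference of -0.42 ± 0.32 (edgeR adjusted p = 1.00). The late fold change of Col7a1 was close to 0, at -0.03 ± 0.17, and was 0.04 and 0.08 in 2 of the fits without 1 library. Neither difference passed the test over all genes.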

How the results depend on the processing

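In WAPL days 4 to 7 the count of 12 collagens became 3 within clone H7 and ranged from 3 to 15 when 1 library was left out. The other settings gave 10 to 17, with 17 under the replicate block. In WAPL days 7 to 10 the count of 0 became 12 under the replicate block (11 higher and 1 lower, against 17.5% and 19% of all genes, 5141 called), ranged from 0 to 3 when 1 library was left out, and stayed at 0 otherwise. Same-numbered libraries there deviated together (r = 0.785), but with 2 pairs only the numbers may or may not pair the samples. In RAD21 RNA the 7 became 4 under library totals, 3 under DESeq2, 0 with no replicate block (without the clone term) and 0 to 1 when 1 library was left out. In RAD21 PRO-seq the 7 became 0 under DESeq2, 0 with no replicate block and 0 in each fit that left out 1 library. The window difference stayed at 0 collagens in each setting run. The RAD21 fits without 1 library hold no clone term, so the clones weigh unequally in them. There the log2 fold change ranged from -0.070 to 0.48 for Col4a2 in RNA (-0.070 without the DMSO library of C4, -0.02 without the dTAG-13 library of G9), from -1.17 to 0.01 for Col23a1 in RNA (0.0097 without the DMSO library of G9) and from -0.54 to 0.0020 for Col18a1 in PRO-seq (the highest without the dTAG-13 library of G9), so the sign changed. Over all genes, the 2209 called in WAPL days 4 to 7 became 3993 under the replicate block, 994 without the clone term, 360 within clone H7 and 341 to 4433 without 1 library. The 0 called in days 7 to 10 became 44 under DESeq2 and 27 to 143 without 1 library. The 2708 called in RAD21 RNA became 472 under DESeq2, 1 without the clone term and 16 to 94 without 1 library. The 1743 called in RAD21 PRO-seq became 514 under DESeq2, and 0 both without the clone term and without 1 library. The 0 of the window difference became 4 under DESeq2 and 5 under the replicate block. Where leaving out 1 library left a lone one in a group, it was assumed to vary like the other groups. Beyond the missing clone term and the fewer libraries, the cause was not tested. Sign changes without a call came to 15 of 514 values in WAPL days 4 to 7, 26 of 295 in days 7 to 10, 28 of 329 in RAD21 RNA and 39 of 431 in PRO-seq. Collagens near 3 counts per library, such as Col8a1 with DMSO, are limited by depth.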
